A study of Mus musculus with 18 samples.

Results

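Aire is a transcriptional regulator of medullary thymic epithelial cells (mTECs), and the data described here compare mTEC RNA from mice labelled Aire KO with that of their own wild-type (WT) group, 3 libraries each, or 6 of the 18 libraries of the series. The members are these 6 libraries, chosen by their labels. All were from C57BL/6 mice. The labels do not give the Aire allele, the age of the mice, the sort gate or whether cells of several mice were pooled, nor whether the triplicates came from separate mice, so a p-value here reflects only how far these libraries spread, which may be technical. Within each group the libraries are called A, B and C. A WT group for Fezf2 and a group labelled Fezf2 KO, also C57BL/6 and with 3 libraries each, stood in the same sequencing run and are used as libraries outside the contrast. The other 6 libraries of the series, from a Chd4 experiment, were not used.

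Mature mTECs transcribe at low levels many genes whose products otherwise belong to peripheral tissues, such as digestive enzymes, hormones and skin proteins. Aire raises the transcription of a large share of them, and developing T cells that recognise the products are deleted or diverted. Aire is described as acting on genes that are poorly transcribed and as releasing RNA polymerase that is held near gene starts. Reads in introns come mostly from RNA that is not yet spliced, whereas reads in exons, and reads that span an exon-exon junction, come mostly from spliced RNA. The table used here counts all 3 kinds of read for each gene.

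Exon reads per library ranged from 4374935 to 4858250, intron reads from 801752 to 1131113 and exon-exon reads from 2077190 to 2408555. Introns held 15.2 to 17.55% of exon plus intron reads in the WT libraries and 17.09 to 18.57% in the libraries labelled Aire KO, with overlap between the groups. Aire itself gave 1932, 1801 and 2290 CPM (exon read counts relative to the library total, scaled with the trimmed mean of M values, TMM) in WT A, B and C. It gave 3718, 4067 and 3976 CPM in Aire KO A, B and C. All 3 labelled KO libraries thus lay above all WT libraries, with a log2 fold change of 0.97 ± 0.11 (standard error, SE; edgeR adjusted p = 9.8e-05). Fezf2 was higher too (0.48 ± 0.15, adjusted p = 0.041; the call ended when WT A, WT B, Aire KO B or Aire KO C was left out), and Chd4 changed by -0.40 (adjusted p = 0.21). The intron reads of Aire moved by 0.93 ± 0.14 and its exon-exon reads by 0.85 ± 0.11 on the log2 scale. The transcript level does not show the knockout, and no source used here gives the deleted part of the gene, so every direction below is that of the libraries labelled Aire KO. Libraries were called female where the summed reads of 4 Y-linked genes lay below 50 CPM (over unscaled library totals). By that limit WT B and Aire KO A were female, at 12.6 and 0.457 CPM. The other 4 libraries were male, at 182 to 206 CPM. WT B thus held some Y-linked reads. In bulk RNA, fewer cells of a type and less RNA per cell cannot be told apart.

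Genes are called lower or higher where edgeR's Benjamini-Hochberg adjusted p was under 0.05. Of 14949 genes tested in exon reads, 1401 were lower in the libraries labelled Aire KO (9.37% of the genes tested) and 856 were higher (5.73%). Scaling by total reads alone gave 1706 lower and 572 higher genes, and moved the median log2 fold change of all genes to -0.10 from -0.00 under TMM. Leaving out WT B gave 548 higher genes. Both groups of changes are described below by size, by WT level, by kind of read and by position.

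The lower genes were split by how much RNA was left. The level left in the libraries labelled Aire KO was the summed KO reads over the summed WT reads, each divided by its effective library sizes, with an exact conditional (binomial) 95% interval that covers counting error only. Genes whose whole interval lay below 6.25% of WT were called on/off losses, genes whose whole interval lay above it graded losses, and the others undecided at this depth. The split gave 150 on/off, 937 graded and 314 undecided genes. The median level left was 0.0925% of WT for on/off genes and 39.1% for graded genes. Of the on/off genes, 75 had 0 KO reads in all 3 libraries, and so did 48 of the undecided genes. Just inside the limit lay Gm853, Rln3 and Slurp2, with upper bounds of 6.16, 6.17 and 6.18%, and just outside it Has1, Lipf and Nxpe5 with 6.26, 6.26 and 6.31%. With the limit at an eighth of WT, the on/off group had 312 genes, and with a limit of a thirty-second it had 60.

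The on/off genes with the most WT reads encode secreted or surface proteins of many organs. Nts, the precursor of the gut and brain peptide neurotensin, had 114, 95.5 and 128 CPM in WT A, B and C and 0, 1.07 and 1.88 CPM in Aire KO A, B and C. The level left was 0.875% (interval 0.465 to 1.5%). Mpo, myeloperoxidase of neutrophil granules, had 131, 98.4 and 94.9 CPM in WT against 1.66, 0.426 and 0.941 CPM, or 0.909% (0.483 to 1.56%). Every one of these libraries labelled Aire KO was far below the lowest WT library.

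Pgc, a gastric pepsinogen, had 75.5, 54 and 92.1 CPM in WT, while Aire KO A and B had 0 reads and C had 0.47 CPM. The level left was 0.205% (0.0248 to 0.742%) on 2 KO reads. Tac2, the precursor of neurokinin B, had 55.4, 44.6 and 52.8 CPM in WT and 0.237, 0.213 and 0 CPM in KO. Gal, the precursor of the neuropeptide galanin, was less even: Aire KO A had 0 reads and B 2.98 CPM, against 46.2 to 54.8 CPM in WT. Psca and Lypd2, small surface proteins of the Ly6 family, kept 2.41% and 2.81%, with reads in all 3 KO libraries. Gatm, an enzyme of creatine synthesis, ranged from 0.237 CPM in Aire KO A to 3.06 CPM in C.

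**Figure D1:**
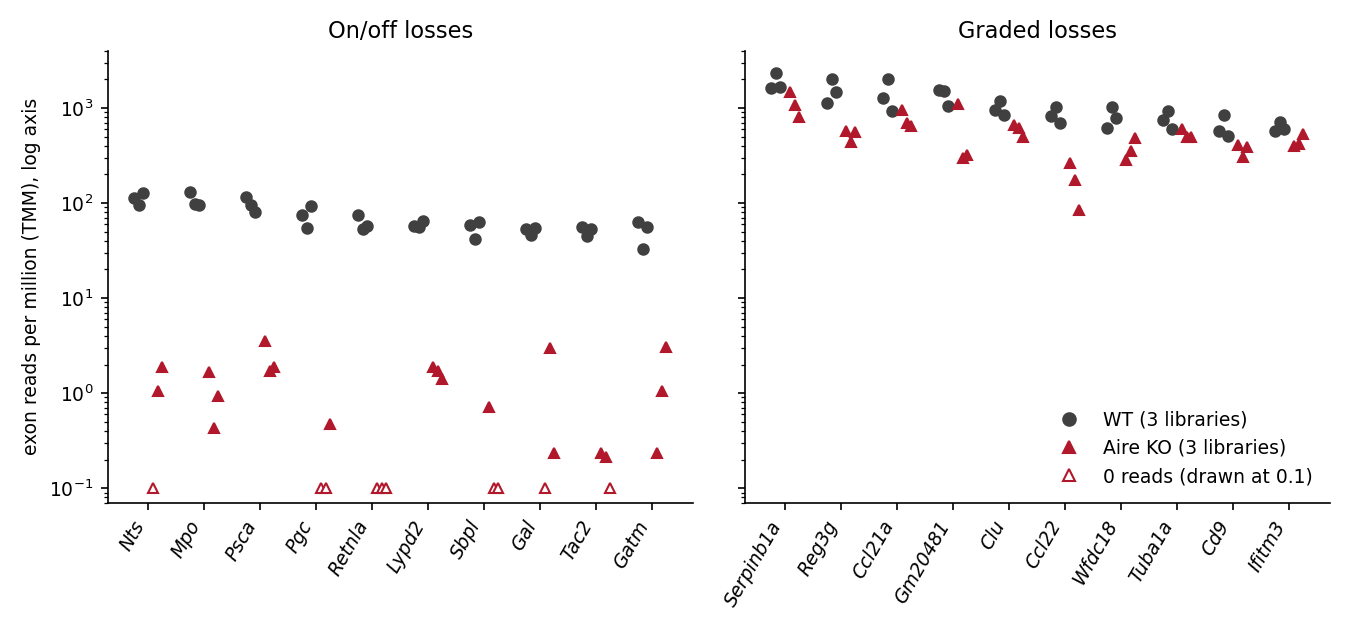
Exon reads in CPM on a log axis in each of 3 WT and 3 Aire KO libraries, for the 10 on/off genes with the most WT reads and the 10 graded losses with the highest WT level; open symbols at 0.1 mark libraries with 0 reads. The on/off genes shown have at most 3.55 CPM in any Aire KO library, whereas graded losses stayed within a few fold of WT and for some genes the groups overlap.

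The on/off genes, like nearly all tested genes, were expressed in mTECs outside the contrast. Of the 150, 149 had reads in all 3 libraries of the WT for Fezf2 and 150 in all 3 libraries labelled Fezf2 KO, with median levels of 18.1 and 15.4 CPM. So had 14814 and 14870 of all 14949 tested genes, with medians of 24.8 and 23.7 CPM. Within the Fezf2 experiment 9 of the 150 were lower, 4 were higher, and their median log2 fold change was -0.30. Of 14529 genes tested in both experiments, 370 were lower and 357 higher there, with a median of -0.03. The Aire effect was below the Fezf2 effect (interaction contrast) for 150 of 150 on/off genes, 382 of 937 graded genes and 261 of 314 undecided genes. Over all 16532 genes tested it was below for 8.73%. The on/off genes were chosen by the Aire contrast that enters this interaction, so these counts describe them and support nothing further.

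The promoters of some on/off genes are shown with their counts of CpG and TATAAA. RefSeq promoters (GRCm38.p6) matched 121 of the 150 on/off genes (80.7%). In the 250 bases before the start, the median ratio of observed to expected CpG dinucleotides was 0.18 for these 121 and 0.38 for the 27025 genes of the table. The letters TATAAA on the gene strand lay in the last 50 of these bases in 29 of the 121 on/off genes (24.0%) and in 2.88% of the table. Only the gene strand was searched, and TATAAA and CpG cannot overlap. The whole table also holds genes that are not expressed in mTECs. For graded, undecided, higher and other tested genes 75.2 to 78.5% had a promoter in the table, short of the 80% required here for such a check, so the comparison with them is void. These values therefore do not set the on/off genes apart from other lower genes or from all tested genes. The 4 on/off genes with the most WT reads among those matched follow, 5′ to 3′ on the gene strand and ending at the last base before the start, with CpG and TATAAA in capitals. They lie at chr10:102490419-102490668 (minus strand, Nts), chr11:87793534-87793783 (plus strand, Mpo), chr17:47726592-47726841 (plus strand, Pgc) and chr16:48842359-48842608 (plus strand, Retnla, a secreted resistin-like protein).
Nts: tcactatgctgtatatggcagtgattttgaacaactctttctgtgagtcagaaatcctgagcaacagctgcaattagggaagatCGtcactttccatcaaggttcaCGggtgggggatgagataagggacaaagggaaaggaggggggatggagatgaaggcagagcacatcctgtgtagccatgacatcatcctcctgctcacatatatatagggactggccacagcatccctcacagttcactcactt
Mpo: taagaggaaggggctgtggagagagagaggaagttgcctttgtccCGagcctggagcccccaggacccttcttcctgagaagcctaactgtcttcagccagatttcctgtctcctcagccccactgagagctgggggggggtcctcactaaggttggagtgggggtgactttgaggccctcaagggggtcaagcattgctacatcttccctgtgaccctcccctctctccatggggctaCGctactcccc
Pgc: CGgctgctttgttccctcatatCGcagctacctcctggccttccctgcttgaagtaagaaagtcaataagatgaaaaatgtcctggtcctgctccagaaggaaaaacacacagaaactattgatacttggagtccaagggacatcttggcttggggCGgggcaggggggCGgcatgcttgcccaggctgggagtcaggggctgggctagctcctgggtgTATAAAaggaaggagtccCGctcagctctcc
Retnla: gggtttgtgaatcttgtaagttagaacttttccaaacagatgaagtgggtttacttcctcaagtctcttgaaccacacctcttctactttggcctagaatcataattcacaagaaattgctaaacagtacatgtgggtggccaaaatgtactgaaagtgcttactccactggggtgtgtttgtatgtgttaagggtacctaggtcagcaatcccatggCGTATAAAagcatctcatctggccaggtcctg
The first T of TATAAA stood 31 bases before the start in Pgc and 30 in Retnla. Nts and Mpo have no such letters in this window. The 4 windows hold 2, 2, 5 and 1 CpG.

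Graded losses kept much of their WT level and included some of the most abundant transcripts. Reg3g, an antibacterial lectin of the gut, had 1134, 2034 and 1464 CPM in WT against 578, 443 and 559 CPM, a log2 fold change of -1.55 ± 0.18 (adjusted p = 9.2e-05). Clu, the secreted chaperone clusterin, went from 834 to 1182 CPM in WT to 492 to 668 CPM (-0.74 ± 0.15, adjusted p = 0.0035). Wfdc18, a secreted whey acidic protein family member, went from 612, 1035 and 790 CPM to 287, 350 and 485 CPM (-1.12 ± 0.20, adjusted p = 0.0018). The groups did not overlap for these 3 genes, nor for 4803 of all 14949 tested genes, 2585 of them among the 12692 called neither.

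Among graded losses close to 2-fold, Slfn2, an interferon-induced Schlafen protein, had 90.6 to 120 CPM in WT and 40.5 to 60.1 CPM in KO (-1.01 ± 0.16, adjusted p = 0.00089). Ces2a, a carboxylesterase of liver and gut, had 26.9 to 41 CPM against 16.1 to 17.7 CPM (its fitted level left was 50.1%, interval 42.6 to 58.9%; adjusted p = 0.0048). In the Fezf2 experiment Ces2a moved by -2.33, and the Aire effect lay above the Fezf2 effect by 1.35 ± 0.39 (adjusted p = 0.033). The groups overlapped for Gm20481, with 1056 to 1561 CPM in WT and 1088, 295 and 321 CPM in Aire KO A, B and C. For that gene 7 of 12 alternatives ended the call, among them leaving out any one of the 3 WT libraries, Aire KO B or Aire KO C.

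Losses were spread unevenly over WT levels. In bins of mean WT level, 2.52% of 715 genes were lower at 1 to 3 CPM, 13.96% of 3438 at 3 to 10 CPM, 9.94% of 4415 at 10 to 30 CPM and 6.87% of 4467 at 30 to 100 CPM. Above that, 8.06% of 1501 genes at 100 to 300 CPM and 8.87% of 406 at 300 CPM or more were lower. The median log2 fold change of the lower genes shrank from -3.38 at 3 to 10 CPM to -0.93 at 30 to 100 CPM and -0.75 at 300 CPM or more. Of the on/off genes, 58 lay at 3 to 10 CPM, 71 at 10 to 30, 19 at 30 to 100, 2 at 100 to 300 and none of the 150 above that. At low levels a small change cannot be called at this depth, and an on/off call needs enough WT reads, so these shares follow the depth as well as the genes.

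The bins above use the same WT libraries as the contrast. With bins from the WT for Fezf2, which does not enter the contrast, the shares lower were 5.24, 11.68, 9.98, 7.81, 10.18 and 9.78% from the lowest of these bins to the highest. The excess at 3 to 10 CPM over the next bins was smaller with these independent bins. Counting only genes lower by at least 2-fold, the shares were 2.52% at 1 to 3 CPM, 13.96% at 3 to 10 CPM, 8.95% at 10 to 30, 3.25% at 30 to 100, 2.33% at 100 to 300 and 2.46% at 300 or more. Higher genes ran the other way, from 1.86% at 3 to 10 CPM to 16.46% at 100 to 300 and 19.95% at 300 CPM or more, and 14.54 and 17.60% in the last 2 bins set by the WT for Fezf2. Most of them were small changes: at 300 CPM or more, 5 of the 81 higher genes were at least 2-fold up.

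**Figure D2:**
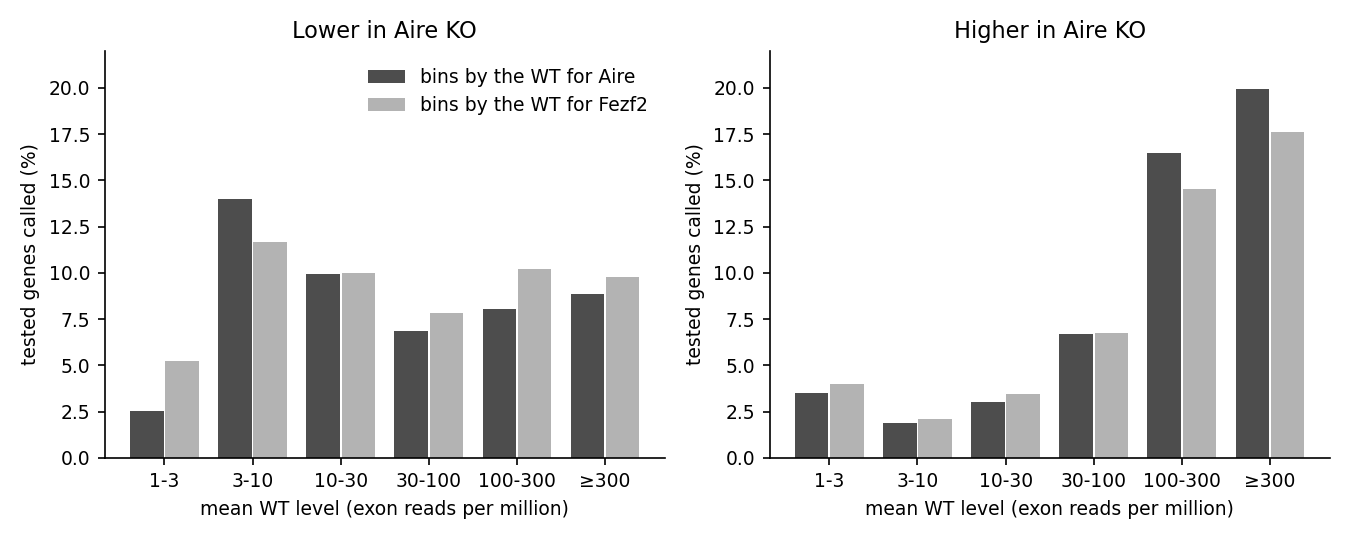
Share of tested genes called lower (left) or higher (right) in the libraries labelled Aire KO, in %, by mean WT level in CPM (exon reads); dark bars use the WT of the contrast for the bins and light bars the WT for Fezf2. The share lower peaks at 13.96% at 3 to 10 CPM in the dark bars and at 11.68% in the light bars, and the share higher reaches 19.95 and 17.60% at 300 CPM or more.

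The spread between WT libraries depended on which WT group was used. In the WT for Fezf2, which does not enter the contrast, the median coefficient of variation at 3 to 10 CPM was 38.3% for the 353 lower genes and 36.9% for the 2607 genes called neither, and at 30 to 100 CPM 23.6% and 22.9%. For the 35 on/off genes at 30 to 100 CPM it was 32.5%. In the WT of the contrast, lower genes and genes called neither had 28.1 and 29.1% at 3 to 10 CPM, 16.2 and 11.2% at 30 to 100 CPM, 13.8 and 8.20% at 100 to 300 CPM and 18.8 and 8.22% at 300 CPM or more. In these bins from 30 CPM upwards the median was higher for lower genes in the WT of the contrast; the difference was not tested.

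Intron and exon-exon reads were tested on their own library sizes and filters. In intron reads, 326 of 11126 genes were lower (2.93%) and 426 higher (3.83%). Scaling by total reads alone turned that split to 546 lower and 216 higher, with the median of all genes at -0.19 on the log2 scale. Leaving out WT A, WT B or Aire KO B gave 214, 188 and 210 genes lower in intron reads. In exon-exon reads, 903 of 11451 genes were lower (7.89%) and 496 higher (4.33%), and leaving out WT A or Aire KO B gave 320 and 319 higher genes. Exon-exon reads are a part of the exon reads, so these 2 kinds are not independent.

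Exon-exon reads moved with the exon reads. Over 11451 genes the log2 fold changes had a Pearson r of 0.97 and a Spearman rho of 0.89. This correlation is across genes, which are not independent replicates and share the libraries. Of the 1008 lower genes tested in exon-exon reads, 814 were lower there and the rest passed in neither direction, with medians of -1.62 in exon-exon and -1.57 in exon reads.

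Among genes called in exon reads, the intron reads moved less and fewer genes passed the test. The exon and intron log2 fold changes had r = 0.60 and rho = 0.52 over 9993 genes. Of the 1401 lower genes 550 had enough intron reads for a test, so the other 851 say nothing here. In these 550 the median log2 fold change was -1.06 in exons and -0.73 in introns. The intron change was negative for 90.7% of them, 136 were lower in introns and 3 were higher. Of 762 higher genes tested in introns, 257 were higher there and the rest passed in neither direction, with medians of 0.67 in exons and 0.57 in introns. In the other direction, 136 of 257 genes lower in introns were lower in exons (52.9%), and 257 of 388 genes higher in introns were higher in exons (66.2%). Genes called lower in introns had medians of -1.27 in introns and -0.86 in exons, and those called higher 0.88 and 0.74. Either way the kind of read used to pick the genes showed the larger change, which picking alone can give. These medians therefore do not show which kind of read moved less.

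Reg3g and Ccl22 show losses of the same size in both kinds of read. Ccl22, a chemokine for CCR4-bearing T cells and dendritic cells, had 41, 41 and 40 intron reads in WT and 11, 8 and 7 in KO. Its intron log2 fold change was -2.22 ± 0.39 (adjusted p = 0.00069) against -2.29 ± 0.30 in exons. Reg3g had 39, 50 and 46 intron reads in WT and 12, 11 and 17 in KO (-1.75 ± 0.36, adjusted p = 0.0025). For both genes the difference between intron and exon effects was under 0.2 on the log2 scale, with SE of 0.36 for Ccl22 and 0.27 for Reg3g.

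Neat1, Msln, Ahcyl2, Csmd1 and Dstn were among the genes lower in introns with the most WT intron reads, and the exon change of these 5 did not pass the test. Dstn, an actin-severing protein, had 749, 568 and 853 intron reads in WT and 485, 558 and 388 in KO (-0.60 ± 0.16, adjusted p = 0.017), with an exon change of -0.18 (adjusted p = 0.43). Msln, which encodes mesothelin, had 729, 1277 and 469 intron reads against 572, 502 and 308 (-0.90 ± 0.26, adjusted p = 0.036), with an exon change of -0.72 (adjusted p = 0.17). The groups overlapped for Msln, where WT B stood highest and WT C lowest of the WT libraries. Serpinb1a, an inhibitor of neutrophil proteases and one of the most abundant graded losses, was lower in both kinds of read: its intron reads were 88, 136 and 120 in WT and 81, 58 and 43 in KO (-0.93 ± 0.25, adjusted p = 0.022), and its exon change was -0.74 ± 0.19 (adjusted p = 0.019). Without WT B its exon change was -0.55 (adjusted p = 0.095), and without Aire KO B it was -0.70 (adjusted p = 0.086). DESeq2 gave -0.75 (adjusted p = 0.076), and with the WT for Fezf2 as the control it was -0.38 (adjusted p = 0.31).

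**Figure D3:**
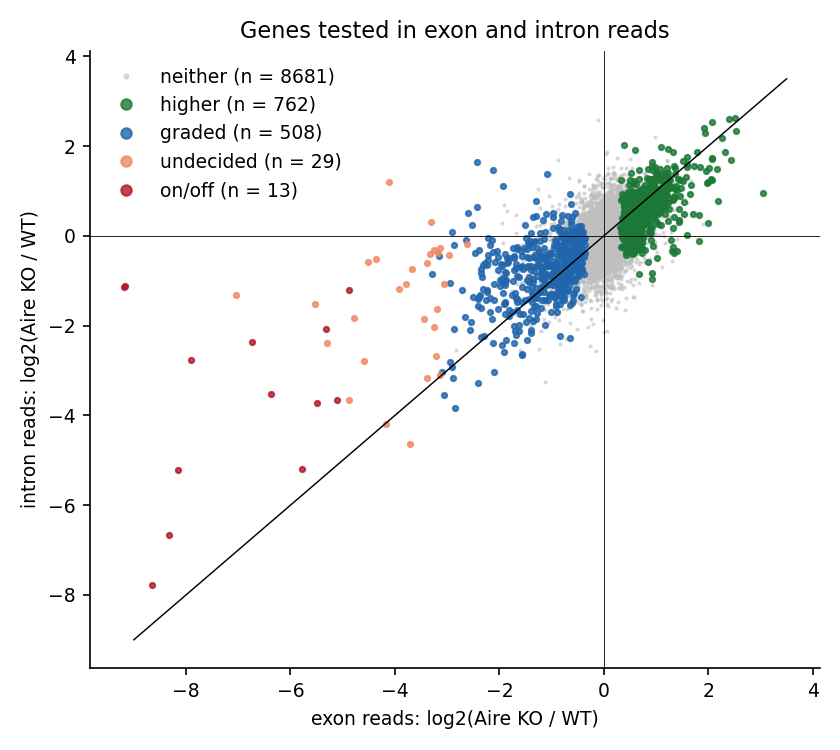
Log2 fold change (Aire KO over WT) in exon reads on the x axis and in intron reads on the y axis for genes tested in both, 1 point per gene, with the line of equal change; colours give the class in exon reads. On/off (13), undecided (29) and graded (508) genes lie mostly above the line and higher genes (762) mostly below it. The change was smaller in introns for 359 of 508 graded and 518 of 762 higher genes, all picked by their exon change.

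The difference between intron and exon effects was tested gene by gene, with the library as a block. The intron effect was above the exon effect for 46 of 9977 genes (0.461%) and below it for 13 (0.13%). Of the 46, 32 were lower in exons and the others were called neither, beside 548 lower in exons among all 9977. The exon change is part of the difference tested, so a low exon value favours both calls. Of the 46, 26 overlap another annotated gene, whose reads could fall in their introns. Overlap was common among all genes tested, of which 4596 of 9977 overlapped no other gene. Without overlapping genes 19 and 6 remained, without Aire KO B there were 16 above, and without WT B there were 3 below. DESeq2 found 27 above and 9 below.

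Neu3, a sialidase of the plasma membrane, had the smallest p. Its exon reads fell from 64, 51 and 71 in WT to 23, 26 and 32, a log2 fold change of -1.09 ± 0.31 (adjusted p = 0.028), whereas its intron reads rose from 151, 177 and 186 to 438, 460 and 453, by 1.39 ± 0.17 (adjusted p = 8e-06). The 2 effects differed by 2.52 ± 0.26 (adjusted p = 9.4e-07). Neu3 overlaps no other gene in the annotation, and few of its reads spanned junctions (0 to 10 per library). The exon loss of Neu3 was not called in 5 of 13 alternatives, among them without WT A, WT C, Aire KO A or Aire KO B, where its log2 fold change stayed between -1.10 and -0.97.

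Gtsf1, a partner of piRNA-guided silencing in germ cells, had 15, 15 and 35 exon reads in WT and 5, 2 and 4 in KO, while intron reads went from 35, 26 and 44 to 82, 112 and 134. Its exon call ended without WT C or Aire KO B (adjusted p = 0.12 and 0.096). Cybb, the catalytic subunit of the phagocyte NADPH oxidase, and Slc7a8, an amino acid transporter, were called neither in exons (-0.21 and -0.11). Both rose in introns, Cybb from 205, 180 and 202 reads to 393, 506 and 407 (1.14 ± 0.16, adjusted p = 6.4e-05) and Slc7a8 from 183, 181 and 164 to 470, 490 and 405 (1.35 ± 0.17, adjusted p = 1.3e-05). For these 3 genes, none of which overlaps another gene, all KO libraries were above all WT libraries in introns. Zg16, a secreted lectin of the gut, and the liver and fat carboxylesterase Ces1d overlap other genes and are uncertain.

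In the other direction the leading genes included Neat1, Gadd45a, Klf6, Hist1h2bc and Fam110b. Fam110b went from 7.63, 9.37 and 9.02 exon CPM in WT to 22, 21.1 and 22.1 CPM (1.32 ± 0.24, adjusted p = 0.0018), while its intron reads, at 82, 73 and 70 in WT and 67, 68 and 56 in KO, changed by -0.25 (adjusted p = 0.66). Klf6, an early-response transcription factor, rose in exons (0.59 ± 0.12, adjusted p = 0.0046) and not in introns (-0.25, adjusted p = 0.41), a difference of -0.81 ± 0.16 (adjusted p = 0.007).

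Because 13 of the 150 on/off genes had enough intron reads for a test, their reads were also summed over all 150. Summed exon reads were 15158, 10661 and 13404 in WT and 101, 99 and 142 in KO, and summed intron reads were 838, 607 and 871 in WT and 70, 87 and 106 in KO. On the CPM scale of each kind of read, the KO libraries thus held 0.945% of the WT level in exons, 0.816% in exon-exon reads and 11.4% in introns. The intron share left was 10.2% over the 123 on/off genes that overlap no other gene and 12.3% without the 10 on/off genes with the most intron reads. These genes were picked by their exon loss, which alone can put the exon share below the intron share.

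A level of intron reads that goes without exon reads was taken, as an alternative chosen after the data were seen, from 2672 genes of at least 2 exons that overlap no other gene and had no exon read in any of the 12 Aire and Fezf2 libraries. These held 112 ± 3.5 intron reads per megabase of intron (as CPM, over unscaled library totals) in WT and 116 ± 7.5 in KO (SD, n = 3). Without the 10 of them with the most intron reads the means were 58.2 and 39.0. The 123 on/off genes without overlap held 608 ± 66 in WT and 54.7 ± 18 in KO on the same scale (SD, n = 3). Without the 10 on/off genes with the most intron reads the KO mean was 42.0, beside the 39.0 given above. Leaving out 10 genes takes a far larger share of 123 genes than of 2672, so 42.0 and 39.0 are not like for like. With all genes kept, the KO means were 54.7 and 116. Of the 13 on/off genes tested, 4 had an intron effect above the exon effect past the threshold: Mup6, Pla2g1b, Mpo and Adgre1. The exon loss that picked these genes is part of the difference tested, so the choice of genes favours such calls. Whether the intron reads left in KO exceed those of genes with no exon read was not tested. Tac2 had 29 intron reads in each WT library and 0, 2 and 0 in KO, and Gatm had 24, 21 and 22 in WT and 3, 0 and 2 in KO. Mpo kept 3, 4 and 5 intron reads in KO against 27, 14 and 23 in WT, and overlaps another gene. Adgre1, a macrophage surface receptor that overlaps none, kept 10, 9 and 9 against 20, 21 and 24.

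For the 926 graded genes of at least 2 exons, the KO libraries held 51.8% of the WT level in exons, 50.4% in exon-exon reads and 87.6% in introns. One gene carried much of that intron sum. Camk2b, a calcium-dependent kinase, had 21917, 8128 and 6805 intron reads in WT and 15839, 23623 and 12854 in KO, beside 133, 77 and 122 exon reads in WT and 53, 55 and 69 in KO. Without Camk2b the intron share was 66.3%, and without the 10 graded genes with the most intron reads 62.2%. The undecided genes held 6.01% in exons and 39.6% in introns, the higher genes 151% and 155%, and genes called neither 104% of both. All these groups were picked by their exon change, so the sums do not show which kind of read moved less.

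**Figure D4:**
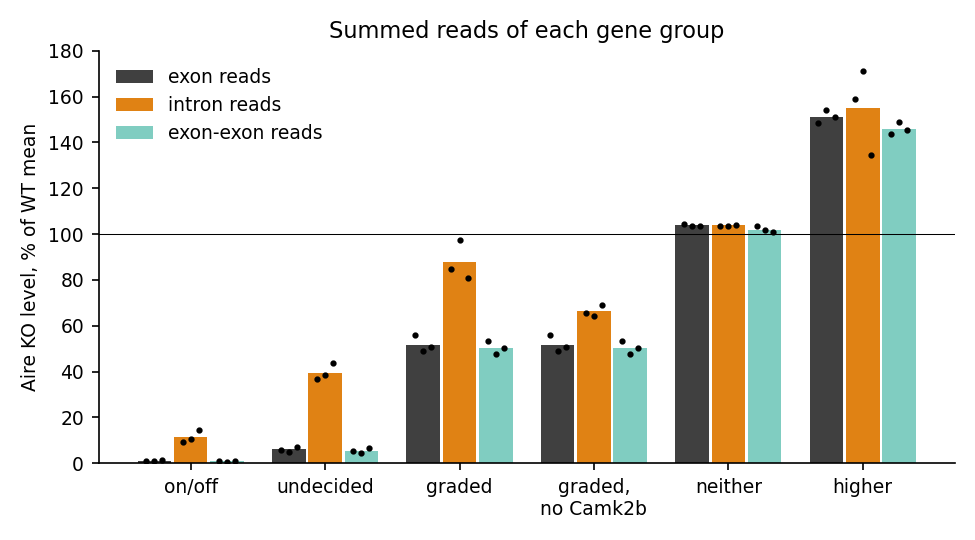
Summed reads of each gene group in the libraries labelled Aire KO as % of the WT mean, on the CPM scale of each kind of read (bars: mean of 3 libraries, points: each library), for genes with at least 2 exons. The gap between exon and intron bars is widest in proportion for on/off genes (0.945 and 11.4%) and small for genes called neither or higher. All groups were picked by their exon change, and picking alone can give such a gap. Graded genes are drawn with and without Camk2b.

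Lower genes often had a lower neighbour on the chromosome. The nearest tested gene whose body did not overlap was itself lower for 380 of the 1401 lower genes (27.1%), for 6.86% of genes called neither and for 8.68% of all tested genes. Each neighbouring pair can be counted from both sides. It was higher for 3.43% of the lower genes, beside 5.45% of all tested genes. Among lower genes, the neighbour was lower for 54% of on/off, 34.1% of undecided and 20.5% of graded genes.

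Gene families account for part of this count: 265 of the 1401 neighbours shared a symbol stem (its leading letters) with the lower gene. Without such neighbours 19.6% of 1136 lower genes had a lower neighbour, beside 7.45% of all tested genes. By distance, with no test of a trend, the share was 26.5% for gaps under 10 kb (608 genes), 29.8% for 10 to 50 kb (531), 22.9% for 50 to 200 kb (210) and 25% for the 52 genes with a gap over 200 kb. Over all tested genes within 100 kb of a lower gene, 23.4% were lower, beside 9.26% around all tested genes. Higher genes had a higher neighbour in 16.4% of cases, beside 5.45%.

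**Figure D5:**
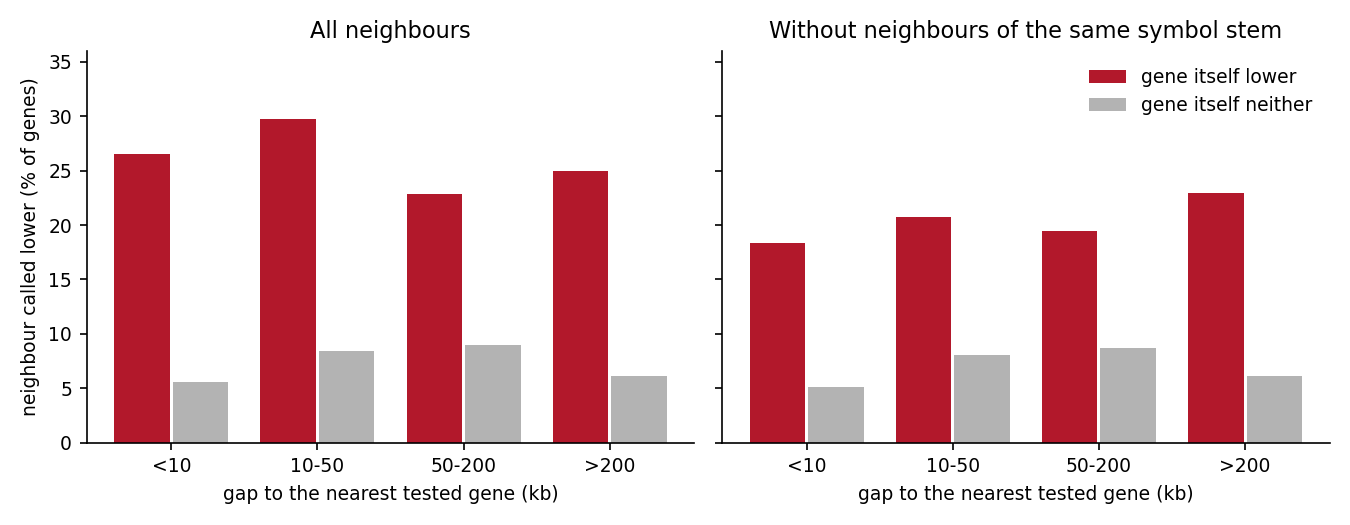
Share of genes, in %, whose nearest non-overlapping tested gene was lower, by the gap between the 2 genes in kb; red bars are lower genes and grey bars genes called neither, with all neighbours (left) and without neighbours of the same symbol stem (right). Red bars stand at 22.9 to 29.8% on the left and 18.4 to 22.9% on the right, above grey bars at 5.13 to 8.94% in both panels.

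Along the chromosomes, 585 of the lower genes (41.8%) stood in 222 runs of 2 or more consecutive lower genes, and 162 in 31 runs of 4 or more. With 9.37% of tested genes lower, some runs arise from random placement, and that number was not computed. The longest held 10 genes over 446 kb of chromosome 2, from Bpifb2 to Bpifb9b, the cluster of secreted lipid-binding proteins of airways and salivary glands. Its members spanned all classes. Bpifb3 had 16.5, 12.7 and 17.2 CPM in WT and 0 reads in KO, at least 68.1-fold lower with 3 reads over the group as the floor. Bpifa1, the most abundant at 223, 290 and 283 CPM in WT, kept 78.9, 41.6 and 123 CPM, or 30.3% (28.2 to 32.4%). Neighbouring genes thus differed widely in the level left. The Aire effect was below the Fezf2 effect for all 10, and all 10 were lower in unique reads too.

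The second run held 9 genes on chromosome 8, among them Defa21, Defa23 and Defa24, alpha-defensins of Paneth cells in the gut. Gm7849 had 16.1, 3.35 and 4.08 CPM in WT, the most uneven of them, and 8 of the 9 had 0 KO reads. These genes are near-identical copies: 56.5% of their exon reads were unique and 4 of the 9 could be tested in unique reads, all 4 lower, so counts of single members are uncertain. On chromosome 7, 7 kallikrein genes from Klk1b21 to Klk1 were lower, serine proteases known from salivary gland. Klk1 had 78.7, 104 and 100 CPM in WT and 7.11, 6.61 and 30.1 CPM in KO, and Klk1b16 had 42.2, 96.6 and 83.1 against 2.84, 4.9 and 19.3. In both genes Aire KO C was highest of the KO libraries.

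On chromosome 15, 7 genes from Psca to D730001G18Rik were lower within 64.0 kb. They include Slurp1, a secreted Ly6 protein of skin, with 15.1, 13.8 and 21.9 CPM in WT and 4.26, 1.49 and 2.59 CPM in KO, and Ly6d, at 216, 248 and 313 against 99.7, 107 and 139. The call of Lynx1, another of the 7, ended without WT B, WT C, Aire KO A or Aire KO B (adjusted p = 0.098, 0.12, 0.074 and 0.093). Also on chromosome 15 lay 2 runs of 7 type II keratins each. The first, Krt87 to Krt90, holds hair keratins, and the second runs from Krt6a to Krt1. Krt73, an inner root sheath keratin, had 16.1, 11.6 and 22.3 CPM in WT and 0, 0.213 and 0 in KO. Krt5, the keratin of basal epithelial cells, had 439, 466 and 337 against 251, 276 and 242 (-0.69 ± 0.13, adjusted p = 0.0025). In the Fezf2 experiment Krt5 moved by 1.51, and the effects differed by -2.18 (adjusted p = 7.2e-05). With the WT for Fezf2 as the control for Aire KO, Krt5 changed by -0.50 (adjusted p = 0.096). Many of these keratin calls rested on single libraries: the calls of Krt1, Krt2, Krt6a, Krt81, Krt82, Krt83, Krt86 and Krt90 each ended when at least 1 library was left out. Krt83 lost its call without WT A, B or C, Aire KO A or Aire KO B (adjusted p = 0.053 to 0.12), Krt2 without WT A, WT C, Aire KO A or Aire KO B (0.07 to 0.15), and Krt82 without WT B, WT C or Aire KO A (0.058 to 0.079). Krt1, Krt6a and Krt90 lost theirs without WT B (0.069, 0.11 and 0.059) or Aire KO B (0.085, 0.086 and 0.058), among others. Krt86 lost its call without WT A or Aire KO B (0.052 and 0.062) and Krt81 without WT C (0.073).

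By symbol stem, among stems of at least 8 tested genes, the highest shares lower were 7 of 8 Psg (pregnancy-specific glycoproteins), 18 of 22 Klk, 13 of 18 Ccl chemokines, 7 of 10 Oas (interferon-induced oligoadenylate synthetases), 27 of 42 Krt and 9 of 16 Ces. In these stems 1 gene, a Ccl gene, was higher. By chromosome, the share lower was highest on 3 (12.9% of 753) and 7 (12.9% of 1136). It was lowest on X (4.90% of 449), apart from 0 of 5 genes on Y and 0 of 13 mitochondrial genes. Among protein-coding genes 9.66% were lower and 5.63% higher, and among 262 lincRNAs 3.82% were lower and 14.9% higher.

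Runs of higher genes were shorter: 98 runs of 2 or more held 228 of the 856 (26.6%), and 7 runs had 4 or more genes. Fewer genes were higher (5.73%) than lower (9.37%), which by itself makes runs fewer and shorter. The run counts therefore do not show that higher genes cluster less. The longest held 5 S100 calcium-binding protein genes on chromosome 3. In it S100a13 had 155, 181 and 181 CPM in WT and 382, 292 and 329 CPM in KO (0.96 ± 0.12, adjusted p = 0.00019). With the WT for Fezf2 as the control S100a13 changed by 0.83 (adjusted p = 0.068). Next came Nup85 to Mif4gd on chromosome 11 and Ftl1 to Tulp2 on chromosome 7, where Bax, a pro-apoptotic gene, had 189, 185 and 193 CPM in WT and 341, 342 and 351 CPM (0.87 ± 0.10, adjusted p = 7e-05). Against the WT for Fezf2, Bax changed by 0.73 (adjusted p = 0.14). The exon reads of the 4 genes from Ftl1 to Tulp2 were 28.6% unique, and 3 of the 4 were higher in unique reads. The fourth, Dhdh, missed the threshold there (adjusted p = 0.14) and without WT A, WT B or Aire KO B (0.078, 0.094 and 0.14).

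A further run of 4 higher genes, named after its values were seen, lay at Aire itself on chromosome 10: Pfkl, Aire, Dnmt3l and Icosl. Pfkl, a glycolytic enzyme, had 217, 137 and 172 CPM in WT and 261, 358 and 280 in KO (0.77 ± 0.16, adjusted p = 0.0061). Dnmt3l, a cofactor of DNA methylation whose annotated body overlaps that of Aire, had 95.2, 86.8 and 98.8 CPM against 144, 138 and 144 (0.60 ± 0.11, adjusted p = 0.0019). Icosl, the ligand of the T cell costimulator ICOS, had 303, 284 and 305 against 537, 511 and 435 (0.73 ± 0.11, adjusted p = 0.00058). All 4 were also higher in unique reads. Trpm2, a cation channel gene on the Pfkl side, was higher as well (0.83 ± 0.24, adjusted p = 0.035), while 1810043G02Rik, between Trpm2 and Pfkl, and D10Jhu81e, next after Icosl, changed by 0.04 and -0.11 (adjusted p = 0.95 and 0.71).

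Among higher genes by size, Gm15056, a predicted gene of chromosome 8, had 18.1, 16.7 and 19.1 CPM in WT and 85.3, 82.3 and 92.9 CPM in KO (2.27 ± 0.15, adjusted p = 9.8e-07), with an intron change of 2.19 (adjusted p = 0.00089). Fcgbp, a mucin-like protein of goblet cells, went from 1373, 1038 and 1644 CPM to 2211, 2196 and 2576 (0.78 ± 0.15, adjusted p = 0.0029), with 0.69 in introns. With the WT for Fezf2 as the control the exon change of Fcgbp was 0.20 (adjusted p = 0.53). Csn2, the milk protein beta-casein, went from 1632 to 1873 CPM in WT to 2515 to 2984 CPM (0.68 ± 0.11, adjusted p = 0.00093), while its introns changed by -0.09 (adjusted p = 0.95). The groups did not overlap for these genes, which also held for 4803 of all 14949 tested genes.

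Gene lists written from general knowledge give the setting. They are described by counts and medians beside all tested genes, whose median log2 fold change was -0.00. Of all tested genes 9.37% were lower and 5.73% higher. Of 24 Aire partners and elongation factors, all tested, 0 were lower and 4 higher by edgeR and by DESeq2 (median 0.00), with 2 lower at an unadjusted p under 0.05; over all genes 5.73% were higher. The 4 were Crebbp, Sirt1, Nup98 and Supt5, and the Supt5 call (0.36, adjusted p = 0.028) ended when any one of the 6 libraries was left out (adjusted p = 0.052 to 0.10). Crebbp, a histone acetyltransferase, had 76.7, 66.3 and 68.5 CPM in WT and 119, 116 and 109 in KO (0.70 ± 0.12, adjusted p = 0.0011), and the deacetylase Sirt1 227 to 349 against 419 to 480 (0.63 ± 0.14, adjusted p = 0.0094). Cdk9, a kinase that brings paused polymerase into elongation, changed by -0.26 (adjusted p = 0.21).

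Mimetic mTECs resemble cells of peripheral tissues and carry lineage factors of those tissues. Of 24 such factors 18 were tested, 4 were lower and 1 higher (median -0.17), beside 9.37% lower and 5.73% higher over all genes. Hnf4a, a regulator of gut and liver genes, had 5.62, 4.24 and 4.08 CPM in WT and 0, 0.213 and 0 in KO. Foxi1, a factor of ionocytes, had 8.03, 8.03 and 13.3 against 0, 0 and 1.18, and Gata4 17 to 30.3 against 5.64 to 11.8. Foxi2 had 0 KO reads. More abundant factors did not pass the test, among them the M cell factor Spib, with 321 to 655 CPM in WT and 306 to 467 in KO, and the gut factor Cdx1 at 465 to 490 and 535 to 582. The tuft cell factor Pou2f3 changed by 0.36 (adjusted p = 0.48).

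Of 36 genes that such cells express for their function, 33 were tested, and 18 were lower and 1 higher (median -1.12). Over all genes 9.37% were lower and 5.73% higher. Tff3, a goblet cell peptide, had 56.4, 69.4 and 57.3 CPM in WT and 4.26, 2.56 and 4.7 in KO (-3.99 ± 0.24, adjusted p = 4.4e-07). Scg2, a granule protein of endocrine cells, had 16.9 to 23.2 against 0.235 to 1.89, and Myh3, an embryonic muscle myosin, 12.1 to 24.9 against 0, 0.64 and 0. Gp2, a receptor of M cells, had 218, 372 and 301 CPM against 74.4, 61.8 and 117 (-1.82 ± 0.23, adjusted p = 0.00014), and the Aire effect was below the Fezf2 effect by -2.64 (adjusted p = 6.7e-05). Apoa4 and the chemokine Ccl20 were lower by -1.17 and -1.62. In the Fezf2 experiment they moved by -1.49 and -1.52, and the 2 effects did not differ past the threshold (0.34 and -0.07, adjusted p = 0.6 and 0.92). Gnat3, a taste and tuft cell G protein, was higher (0.81 ± 0.19, adjusted p = 0.011).

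Of 16 chemokines, all tested, 10 were lower and 1 higher (median -0.94), beside 9.37% lower and 5.73% higher over all genes. Ccl5 had 266, 303 and 240 CPM in WT and 86.7, 70.4 and 71.7 in KO (-1.82 ± 0.13, adjusted p = 2.3e-06). Xcl1, which attracts XCR1-bearing dendritic cells, had 8.03, 4.69 and 4.72 against 0, 0.64 and 0. Cxcl10 was higher (0.54 ± 0.14, adjusted p = 0.016), and with the WT for Fezf2 as the control its change was -0.20 (adjusted p = 0.66); without WT B it was 0.43 (adjusted p = 0.075). Of 18 costimulation and crosstalk genes 2 were lower, Tnfsf4 (-2.95 ± 0.59) and Ltbr (-0.71 ± 0.17), and 3 higher, Cd80, Icosl and Cd83. The shares over all genes were 9.37% lower and 5.73% higher. Of 16 folding and secretion genes 5 were higher (median 0.12), among them the chaperone Hsp90b1, beside 5.73% higher over all genes. Of 16 adhesion genes 2 were lower, Cldn7 and Dsp (median -0.17), beside 9.37% lower over all genes. The Cldn7 call ended without WT A, B or C, Aire KO B or Aire KO C (adjusted p = 0.06 to 0.20). Of 20 antigen presentation genes 7 were higher and 1 lower (median 0.21), beside 5.73% higher over all genes. The share higher rose with WT level, to 19.95% of tested genes at 300 CPM or more. Among the 7, the Cd74 call ended with total reads only (adjusted p = 0.0925) and without WT B or C or Aire KO A or B (0.054 to 0.11). The H2-Aa call also ended with total reads only (adjusted p = 0.15). Of 18 ribosomal protein genes 1 was lower, Rps18 (median 0.12). Of 16 cell cycle genes 0 passed in either direction by edgeR, by DESeq2 or at an unadjusted p under 0.05 (median -0.19).

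The mTEC label was checked on 12 markers, all of which were tested. Of these 2 were lower, Epcam and Krt5, and 3 higher, Relb, Cd80 and H2-Aa, and none of the 12 was at 0. Beside this and the other marker counts, 9.37% of all tested genes were lower and 5.73% higher. The Epcam call ended without WT A, B or C, Aire KO B or Aire KO C (adjusted p = 0.063 to 0.10), and the H2-Aa call without WT B or C or Aire KO A or B (0.094 to 0.14). Markers of cells other than mTECs also moved, and their part in the results was not tested. The summed level of 6 fibroblast markers was 188 to 232 CPM in WT and 332 to 426 in KO: Dcn and Lum were higher, and Col1a1, Col1a2 and Col3a1 lower. That of 6 endothelial markers was 26.9 to 34.8 CPM against 58.8 to 69.4, with Pecam1 higher, and that of 6 erythroid markers 263 to 673 against 646 to 988, with Hba-a1 and Alas2 higher. The fibroblast and endothelial sums did not overlap between the groups and the erythroid sums did. Of single genes, 4803 of 14949 tested did not overlap, so such separation of 3 against 3 libraries was common. The Col1a2 call ended without WT B or C or Aire KO B (adjusted p = 0.07, 0.061 and 0.075), and the Hba-a1 call without Aire KO A or B (0.089 and 0.093). With the WT for Fezf2 as the control Col3a1 changed by -0.02 (adjusted p = 0.99), Col1a2 by -0.74 (0.29) and Pecam1 by 1.09 (0.11). DESeq2 gave 0.93 for Hba-a1 (adjusted p = 0.17).

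Of 10 dendritic cell and macrophage markers, 5 were tested and 3 lower. These were Adgre1 (31.9, 26.8 and 17.8 CPM against 0.711, 0.64 and 1.18), C1qa and Csf1r, while the summed level, mostly Lyz2, was 967 to 1199 against 1020 to 1648. Of 12 thymocyte markers 11 were tested and 0 passed in either direction by edgeR, by DESeq2 or at an unadjusted p under 0.05, with a sum of 62.2 to 138 CPM in WT and 67.0 to 121 in KO. Of 6 B cell markers 1 was higher, Blk, with sums of 56.6 to 65.3 and 55.9 to 72.2 CPM. Of 8 cortical epithelial markers Tbata was higher, at 540, 392 and 640 CPM in WT and 733, 963 and 1695 in KO, Dll4 and Enpep were lower, and the sums were 1385 to 1481 and 1573 to 2823 CPM. The Tbata call missed the threshold with DESeq2 (adjusted p = 0.055) and with the WT for Fezf2 as the control (0.69, adjusted p = 0.22). None of the markers on these lists was at 0 in all 6 libraries. Over all tested genes 9.37% were lower and 5.73% higher.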

How the data were processed

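RNA of sorted mTECs was purified on a Maxwell 16 and amplified with SMART-seq v4 (Ultra Low Input), per the labels' protocols. The submitters' processing notes name DESeq2 and the builds mm10 and GRCm38; no source used here gives the aligner, the counting rule or the handling of strand. The authors deposited a table of 49585 genes with total exon, intron and exon-exon read counts per library, plus unique exon and intron reads, per the file headers. In it 120 further per-library columns were not used. Reads of overlapping genes and near-identical copies cannot be told apart by these counts.

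Counts were tested with edgeR 4.0.16 (quasi-likelihood F test, TMM, filterByExpr, Benjamini-Hochberg adjusted p under 0.05 over all genes tested) in R 4.3.3, without a covariate. The SE of a log2 fold change is its size over the square root of F. Intron tests used the 30417 genes with at least 2 exons. Intron and exon effects were compared in 1 model with library as a block and read kind, and the Aire and Fezf2 effects as an interaction over 12 libraries. Alternatives were DESeq2 1.42.0, other scalings, no filter, unique reads, sex as a covariate, the WT for Fezf2 as control, other limits and bins, and each library left out. Unique intron reads were added after seeing the files. Checked on simulated counts, the exon fit recovered 76% of genes changed 2-fold and 100% changed 4-fold (14652 genes), the intron fit 36 and 97% (10662 genes), the exon-exon fit 72 and 99% (11195 genes) and the intron against exon term 50 and 99% (9497 genes). Unchanged genes called numbered 13, 3, 2 and 13 in these fits. Changes were placed only in genes above a minimum mean count, with the same dispersion setting for all genes, so recovery at low counts was not checked.

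Starts in the table were raised by 1 to be 1-based. Symbols came from the authors' table, and biotypes and strands from GENCODE vM21. Of the tested genes, 11678 (78.1%) matched a RefSeq promoter, by symbol, by Ensembl ID or by an older symbol. Named genes followed a rule: Aire, Fezf2 and Chd4, the 10 on/off genes with the most WT reads, the 10 graded losses with the highest level and 5 nearest 2-fold, the 10 higher genes largest in change and in level, the leading intron genes, the members of the longest runs, and the 4 highest of each list; others were chosen after their values were seen. The members and lists were chosen with earlier results of these data known. Values of 3 genes that the rule or a list would name are not reported here.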

Additional observations from a re-analysis of the deposited data

How the results depend on the processing

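Genes lower in exon reads numbered 1101 to 1551 with one library left out, beside 1401, and 2257 with no filter on low counts; genes higher numbered 548 to 805. Genes lower in introns numbered 188 to 318 with one library left out, and 546 lower and 216 higher with total reads only. Without the filter 1515 genes were lower in exon-exon reads; one library left out gave 319 to 444 higher there. The intron effect was above the exon effect for 27 genes with DESeq2, 19 without overlapping genes and 16 to 34 with one library left out, and below it for 6 without overlapping genes and 3 to 10 with one library left out. On/off losses numbered 312 and 60 with limits of an eighth and a thirty-second, and 106 to 172 with one library left out; graded losses 519 to 834, the lowest without Aire KO B, and 611 without WT B. With bins by the WT for Fezf2 the shares lower were 5.24% at 1 to 3 CPM, 11.68% at 3 to 10, 7.81% at 30 to 100 and 10.18% at 100 to 300 CPM, and for losses of at least 2-fold 8.95% at 10 to 30, 3.25% at 30 to 100, 2.33% at 100 to 300 and 2.46% at 300 CPM or more. A lower neighbour was found for 19.6% without the same stem, and 23.4% of genes within 100 kb were lower. Cxcl10 turned from 0.54 to -0.20 with the WT for Fezf2 as the control. The cause was not tested for any of these. Of the values of named genes under alternatives, 2188 kept direction and call, 166 lost the call, 50 gained it and 1 turned. No paired analysis was possible because the columns carry no replicate numbers. Where intron reads are few, as in most on/off genes, depth limits the intron comparison.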
